A study of Homo sapiens with 12 samples.

Results

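The mRNAs of 10 genes that form or control the hypoxia-inducible factors (HIFs) were followed in FDX2-iKO ES2 cells. They comprised the oxygen-regulated subunit genes HIF1A, EPAS1 and HIF3A, their partner ARNT, the prolyl hydroxylase genes EGLN1, EGLN2 and EGLN3, the asparaginyl hydroxylase gene HIF1AN, the ubiquitin ligase gene VHL, and CITED2, whose product inhibits HIF transactivation. They were picked by gene symbol among 58735 gene identifiers in the count table, and each symbol matched 1 identifier. ES2 is an established human ovarian cancer line. In FDX2-iKO cells the endogenous FDX2 gene, which encodes a mitochondrial ferredoxin of iron-sulfur cluster assembly, is disrupted by CRISPR-Cas9, and a TetON transgene that Cas9 cannot cut is designed to make HA-tagged FDX2 as long as doxycycline (Doxy) is in the medium. All 4 conditions therefore carry the same knockout and the same transgene, which by design is on in the cells with Doxy and off in those without, and "FDX2 loss" below stands for libraries labelled without Doxy against those labelled with it. The conditions were 20% O2 with Doxy, 20% O2 without Doxy, 3% O2 with Doxy and 3% O2 without Doxy. Each had 3 libraries, described by the submitters as biological replicates, for 12 libraries in all. By the study's methods, cells at 20% O2 were harvested after 6 days, and cells at 3% O2 after 4 days at 20% followed by 3 days at 3%. A main figure legend on the same RNA-seq data gives the same times, whereas 1 supplementary legend gives 6 days for both. By the methods, 1 added day in culture thus goes with low oxygen. The effect of that day cannot be told apart from that of oxygen. Removal of Doxy and loss of FDX2 cannot be told apart, since no cells without the transgene were sequenced. The lines were grown from single cells and are clones. The labels do not name the clone used for these libraries, and the study's methods give clone #1 wherever no other is stated.

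HIFs are transcription factors made of an oxygen-regulated alpha subunit (HIF-1α from HIF1A, HIF-2α from EPAS1, HIF-3α from HIF3A) and the constitutive beta subunit ARNT. In the presence of oxygen, the EGLN enzymes, which use oxygen, iron and 2-oxoglutarate, hydroxylate prolines of the alpha subunits, and the VHL protein then recruits a ubiquitin ligase that marks them for destruction. HIF1AN hydroxylates an asparagine of the alpha subunits and so blocks their binding of the coactivators CREBBP and EP300, for which CITED2 competes. Control of the alpha subunits is thus largely on the protein, whereas EGLN1, EGLN3 and CITED2 are textbook HIF target genes that form feedback loops. Levels of mRNA say nothing of the stability or the activity of the proteins.

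HIF dimers bind a short core, ACGTG or GCGTG, and promoter sequences are shown here for the genes whose mRNA is compared with oxygen and FDX2 below. RefSeq sequence of GRCh38.p14 was searched on both strands in the 250 bases before the annotated start for 9 of the 10 genes (15 windows, since some genes have several starts). The core stood in 6 of the 9, in each case in the first window, against 43.1% of 27305 genes with 1 window each (ACGTG in 18.7%, GCGTG in 31.9%). The stretches below, 30 bases each and 5′ to 3′ on the gene's strand, hold the core in capitals. In EGLN2 and CITED2 the capitals spell the E-box CACGTG, which holds ACGTG on both strands and is also read by other basic helix-loop-helix factors.
HIF1A (chr14:61695297-61695326, plus strand, 216 to 187 bases before the start): tggctgagagcgGCGTGggctggggtgggg
EPAS1 (chr2:46297278-46297307, plus strand, 129 to 100 bases before the start): gggcctgccggcGCGTGcccgcccacacac
EGLN1 (chr1:231422288-231422317, minus strand, 30 to 1 bases before the start): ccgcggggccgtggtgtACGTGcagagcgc
EGLN2 (chr19:40799130-40799159, plus strand, 61 to 32 bases before the start): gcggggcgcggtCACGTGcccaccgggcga
CITED2 (chr6:139374784-139374813, minus strand, 165 to 136 bases before the start): cagcctctgcagCACGTGccgcgggcggcg
In GENCODE 29 the first exon of EGLN1 begins farther upstream and holds all 250 bases of its window, so that by this annotation the EGLN1 stretch lies in an exon. The window of EPAS1 likewise lies inside the gene as GENCODE 29 gives it. The EGLN2 stretch also lies inside its gene there, and 57 of the 250 bases of that window are exonic. The window of HIF3A also held the core (GCGTG). Windows of ARNT, EGLN3 and HIF1AN held no such letters, and VHL had no window. A match is a description of the sequence and was not tested for binding.

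Totals per library lay between 24958386 and 34313637 counts on genes. FDX2 itself had 5, 2 and 6 counts with Doxy and 9, 13 and 4 without at 20% O2, and 2, 4 and 12 with Doxy and 7, 7 and 5 without at 3% O2. It was too low to be tested, its mean was not higher with Doxy at either oxygen level (0.136 against 0.277 CPM at 20% and 0.202 against 0.239 at 3% O2), and 70.9% of its exonic bases also belong to other genes on its strand. These counts therefore do not check the labels, and directions given for FDX2 loss rest on the labels alone. Among markers of ovarian, epithelial or mesenchymal cells, KRT8, KRT18, VIM and the Müllerian factor PAX8 (172 to 596 counts) were present, whereas CDH1, EPCAM, KRT19, MUC16 and WT1 had at most 8 counts in any library. In 3 of the 4 conditions, 1 library stood apart from the other two (mean chi-square per gene above 20 against each, and under 10 between the others). These were replicate 1 at 20% O2 with Doxy, replicate 3 at 3% O2 with Doxy and replicate 1 at 3% O2 without Doxy. Where stated below, results are also given without these 3 libraries.

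Of the 10 genes, 8 were expressed and were among the 16891 genes tested. HIF3A had 0 counts in all 12 libraries. EGLN3, often the most hypoxia-inducible of the prolyl hydroxylase genes, had 3 counts over the 12 libraries and at most 1 in any, also at 3% O2. A floor of 3 counts corresponds to 0.0882 to 0.121 CPM in these libraries (CPM, a gene's counts relative to the TMM-scaled total of its library), and expression of HIF3A and EGLN3 was not detectable above it (counting error only). HIF-1α and HIF-2α were thus the alpha subunits, and EGLN1 and EGLN2 the prolyl hydroxylases, whose mRNA could be compared.

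Levels of different genes were compared only after division by exon length (CPM per kilobase). HIF1A was the highest of the 10 in each condition, at 68.0 ± 3.74 at 20% O2 with Doxy, 93.7 ± 2.94 at 20% without, 58.5 ± 4.64 at 3% with and 71.3 ± 1.38 at 3% without Doxy (CPM per kilobase, SD, n = 3). EGLN1, VHL and CITED2 came next. With Doxy at 20% O2 their replicates overlapped, at 13.1 ± 0.132 for EGLN1, 12.8 ± 0.339 for VHL and 12.7 ± 1.68 for CITED2 (CPM per kilobase, SD, n = 3). EGLN1 took the second place at 3% O2, at 21.4 ± 1.05 with Doxy and 20.7 ± 0.940 without, where it overlapped with CITED2 at 20.2 ± 2.00. At 20% O2 without Doxy, CITED2 was second at 19.9 ± 0.599 and separate from VHL and EGLN1. HIF1AN (6.37 to 7.85 as condition means) and ARNT (5.58 to 6.81) followed, and their replicates overlapped only at 20% O2 with Doxy. EGLN2 and EPAS1 were the lowest of the expressed genes. EGLN2 lay above EPAS1 at 20% O2 with Doxy (1.07 against 0.764 CPM per kilobase), the pair overlapped at 3% O2 with Doxy, and EPAS1 lay above EGLN2 in both conditions without Doxy (2.67 against 0.832 at 20% O2, 1.52 against 0.911 at 3% O2).

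**Figure D1:**
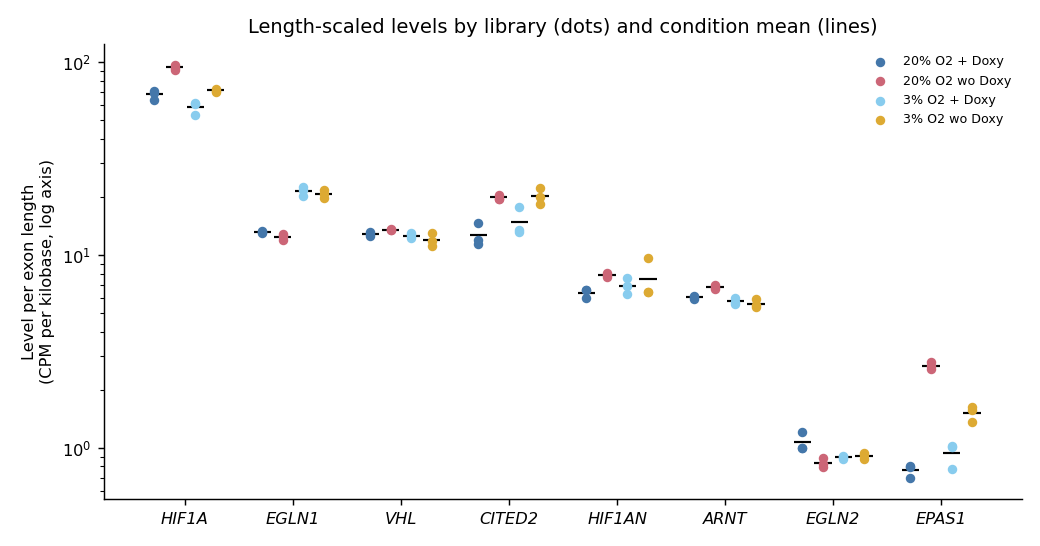
Levels of the 8 expressed genes in CPM per kilobase of exon (log axis), with a dot for each library, colours for the 4 conditions and a line at each condition mean. HIF1A stands highest in all conditions, and EPAS1 changes place with EGLN2 in the cells without Doxy.

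Changes were tested by the quasi-likelihood method of edgeR in a single model of the 12 libraries, with p-values adjusted after Benjamini and Hochberg over the 16891 genes and a threshold of 0.05. FDX2 loss at 20% O2 raised 4 of the 8 genes (HIF1A, EPAS1, ARNT, CITED2) and lowered 1 (EGLN2), where it raised 17.6% of all tested genes and lowered 17.7%. FDX2 loss at 3% O2 left 2 of the 8 higher (HIF1A, EPAS1) and 0 lower, against 4.2% and 3.11% of all genes. At 3% against 20% O2 in cells with Doxy, 1 of the 8 was higher (EGLN1) and 0 lower, against 1.63% and 0.385%. At 3% against 20% O2 in cells without Doxy, 1 was higher (EGLN1) and 3 were lower (HIF1A, EPAS1, ARNT), against 13.9% and 11.9%. The difference of the responses, that is the log2 fold change after FDX2 loss at 3% O2 minus that at 20% O2, was called for 1 of the 8 (EPAS1, lower) and for 3.21% of all genes in the positive and 4.08% in the negative direction. The median log2 fold change of the 8 genes was 0.24, 0.07, 0.05, −0.12 and −0.18 in these 5 comparisons, and that of all tested genes 0.01, 0.04, −0.00, 0.07 and 0.05. The comparisons share conditions with each other, so their values are set side by side and not counted as separate evidence.

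**Figure D2:**
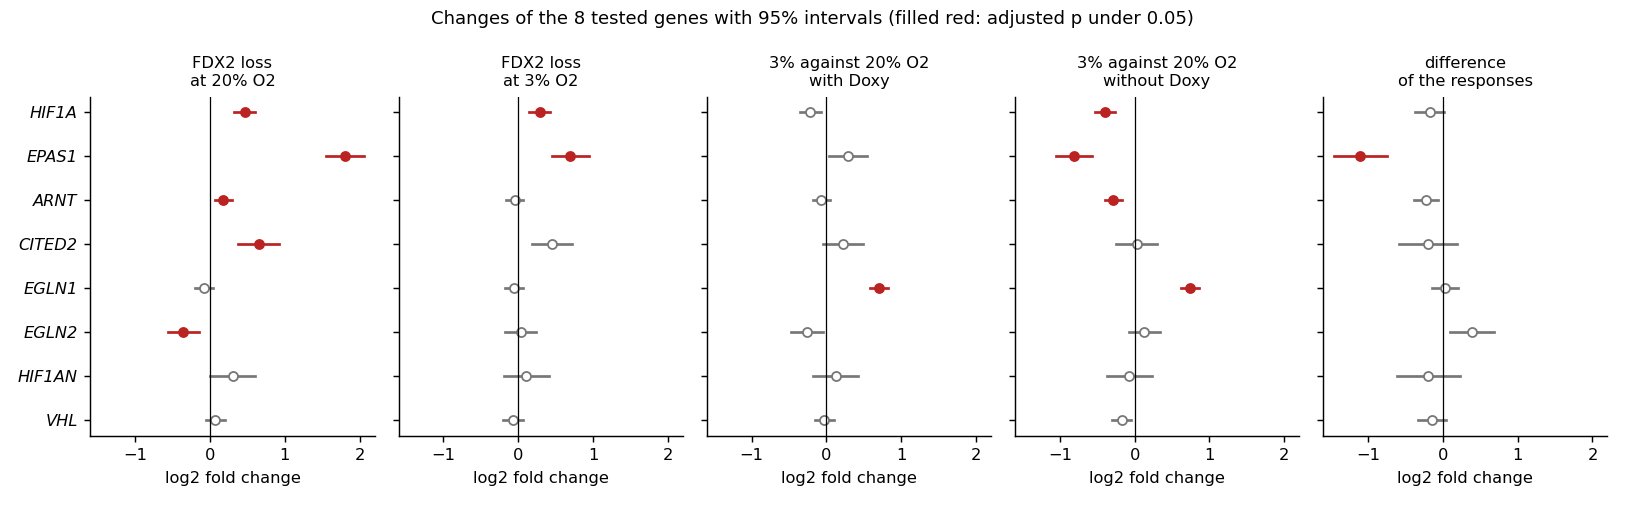
Log2 fold changes (x axis) of the 8 tested genes in the 5 comparisons, with lines for the 95% interval and filled red points at an adjusted p under 0.05 (edgeR). EPAS1 lies farthest to the right after FDX2 loss at 20% O2 (1.80), and EGLN1 is the only filled point for oxygen in cells with Doxy (0.71).

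EPAS1 (ENSG00000116016, GRCh38 chr2:46293667-46386703, plus strand), which encodes HIF-2α, varied the most of the 8 genes. With Doxy at 20% O2 its level was 5.82, 5.07 and 5.85 CPM in the 3 libraries, and without Doxy 20.2, 19.5 and 18.7 CPM. At 3% O2 it was 5.67, 7.37 and 7.47 CPM with Doxy and 9.94, 11.8 and 11.4 CPM without. Each library without Doxy was above each library with Doxy at both oxygen levels, and the 3 libraries at 20% O2 without Doxy were the highest of the 12. FDX2 loss raised EPAS1 3.48-fold at 20% O2 (log2 fold change 1.80, SE 0.114, Benjamini-Hochberg adjusted p = 1.12e-06, quasi-likelihood test of edgeR) and 1.62-fold at 3% O2 (log2 fold change 0.70, SE 0.113, adjusted p = 0.00492 by the same edgeR test). The response at 3% O2 was smaller by 1.10 on the log2 scale (95% interval of the difference −1.45 to −0.75, Benjamini-Hochberg adjusted p = 0.00281, quasi-likelihood test of edgeR). Low oxygen moved EPAS1 by a log2 fold change of 0.29 in cells with Doxy, where replicates overlapped and the threshold was not passed (95% interval 0.04 to 0.54, adjusted p = 0.301 by edgeR). In cells without Doxy, EPAS1 was lower at 3% O2, with a log2 fold change of −0.81 (SE 0.110, adjusted p = 0.000489 by edgeR), and the replicates did not overlap. At 140 to 630 counts per library, EPAS1 rests on fewer reads than the other genes here except EGLN2. The call at 3% O2 was lost when only the 6 libraries compared were fitted (adjusted p up to 0.168 by edgeR), with the direction unchanged.

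**Figure D3:**
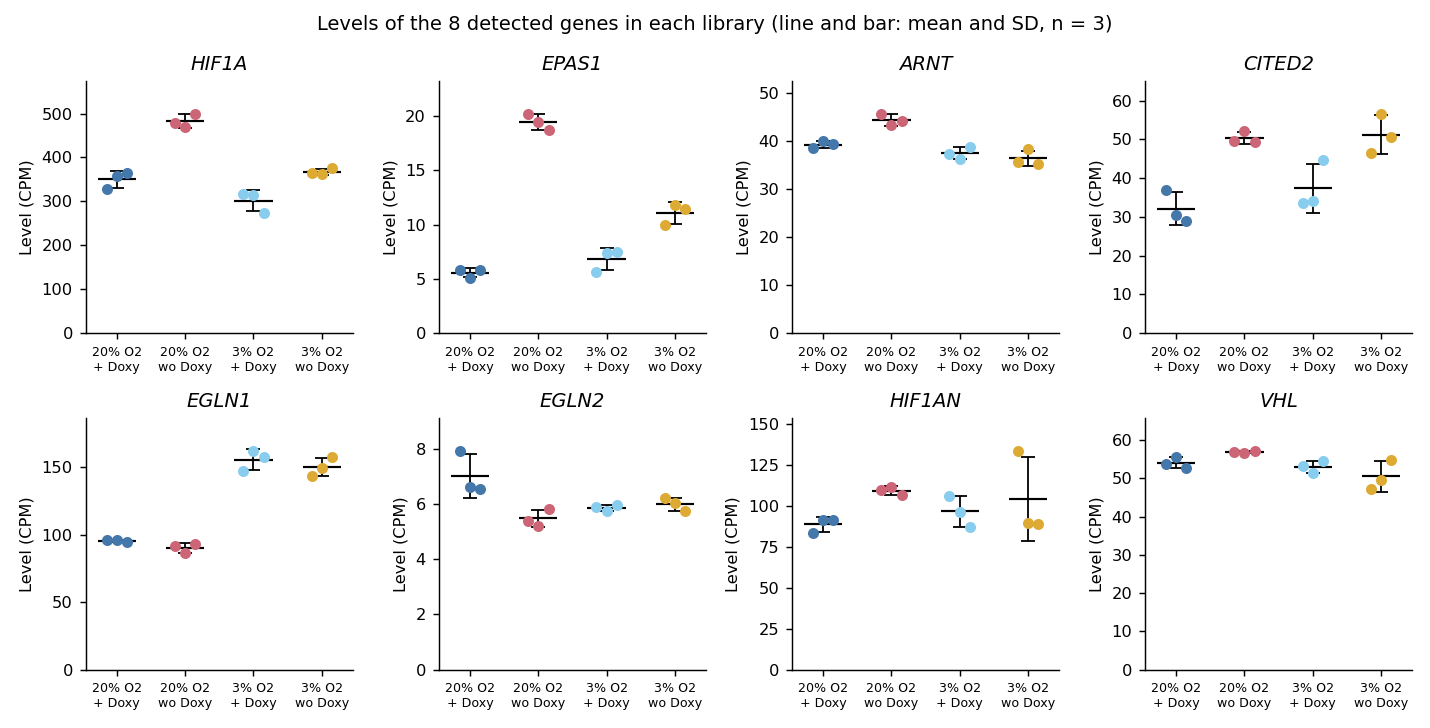
Levels of the 8 expressed genes in CPM, 1 panel a gene with an axis from 0, a dot for each library, and the mean with SD for each condition (n = 3). EPAS1 is high without Doxy at 20% O2 (18.7 to 20.2 CPM) and intermediate without Doxy at 3% O2 (9.94 to 11.8 CPM), whereas EGLN1 splits the libraries by oxygen.

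HIF1A (ENSG00000100644, GRCh38 chr14:61695513-61748259, plus strand), which encodes HIF-1α, moved in the same direction as EPAS1 after FDX2 loss but by less. With Doxy at 20% O2 it stood at 329, 357 and 366 CPM, and without Doxy at 480, 470 and 499 CPM. At 3% O2 the libraries with Doxy had 317, 314 and 274 CPM and those without 365, 362 and 376 CPM. The libraries at 20% O2 without Doxy were again the highest of the 12, and at neither oxygen level did cells with and without Doxy overlap. FDX2 loss raised HIF1A at 20% O2, with a log2 fold change of 0.46 (1.38-fold, SE 0.0625, Benjamini-Hochberg adjusted p = 0.000213, quasi-likelihood test of edgeR). At 3% O2 the increase was 0.29 on the log2 scale (1.22-fold, SE 0.0626, adjusted p = 0.0201 by the same edgeR test). This second call was lost in 8 of 15 alternatives (highest adjusted p = 0.328 by edgeR), among them leaving out replicate 2 with Doxy, replicate 2 without Doxy or replicate 3 without Doxy, whereas the direction held in all 15. HIF1A did not rise with low oxygen. It was lower at 3% O2 in cells without Doxy (log2 fold change −0.39, SE 0.0625, adjusted p = 0.00129 by edgeR), and in cells with Doxy the log2 fold change was −0.22 (95% interval −0.35 to −0.08, adjusted p = 0.123 by edgeR), with replicates that did not overlap. A difference between the responses at 3% and 20% O2 was not called for HIF1A (−0.18, 95% interval −0.37 to 0.02). Without the 3 libraries that stood apart it was called at −0.20 (adjusted p = 0.026 by edgeR), as was the lower level at 3% O2 with Doxy at −0.21 (adjusted p = 0.0142 by edgeR). Other genes overlap 5.14% of the exonic bases of HIF1A, among them the antisense gene HIF1A-AS1, which had 227 counts in replicate 1 at 3% O2 without Doxy and 18 to 71 in the other libraries. HIF1A was not high in that library (365 CPM).

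ARNT (ENSG00000143437, GRCh38 chr1:150809705-150876768, minus strand), the shared beta subunit, varied within a narrow range. At 20% O2 it had 38.6, 40.0 and 39.3 CPM with Doxy and 45.7, 43.3 and 44.3 CPM without. Those at 3% O2 had 37.3, 36.4 and 38.8 CPM with Doxy and 35.7, 38.3 and 35.2 CPM without. The libraries at 20% O2 without Doxy were above the other 9, and the groups at 3% O2 overlapped. After FDX2 loss at 20% O2 the log2 fold change was 0.18 (SE 0.0511, Benjamini-Hochberg adjusted p = 0.0199, quasi-likelihood test of edgeR), a call that was lost in 7 of 15 alternatives. Leaving out replicate 1 with Doxy (adjusted p = 0.0569) or replicate 1, 2 or 3 without Doxy (0.084, 0.0623 and 0.0954, all by edgeR) was enough to lose it. The call was also lost without the 3 libraries that stood apart. In cells without Doxy, ARNT was lower at 3% than at 20% O2 (log2 fold change −0.29, SE 0.0513, adjusted p = 0.0026 by edgeR), and this call held in all 15 alternatives. The remaining changes, −0.04 after FDX2 loss at 3% O2 (95% interval −0.16 to 0.07) and −0.07 with oxygen in cells with Doxy (−0.18 to 0.05), did not pass the threshold. The difference of the responses was −0.22 (−0.38 to −0.06, adjusted p = 0.0947 by edgeR).

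CITED2 (ENSG00000164442, GRCh38 chr6:139371807-139374620, minus strand), the competitor of HIF for CREBBP and EP300, was raised by FDX2 loss at 20% O2. Its levels there were 37.0, 30.4 and 28.9 CPM with Doxy and 49.7, 52.1 and 49.2 CPM without, with no overlap. The log2 fold change was 0.65 (1.57-fold, SE 0.124, Benjamini-Hochberg adjusted p = 0.00205, quasi-likelihood test of edgeR). At 3% O2 the levels were 33.5, 34.03 and 44.6 CPM with Doxy and 46.5, 56.6 and 50.6 CPM without. These groups did not overlap either, but the log2 fold change of 0.45 stood at the threshold (95% interval 0.18 to 0.72, adjusted p = 0.0503 by edgeR). It passed in 7 of 15 alternatives, among them leaving out replicate 3 with Doxy or replicate 1 without. The highest library with Doxy, replicate 3 at 44.6 CPM, is among those that stood apart, and without the 3 such libraries the log2 fold change was 0.63 (adjusted p = 2.92e-05 by edgeR). CITED2, although it is a known HIF target, showed no change with oxygen that passed the test. Its log2 fold change at 3% against 20% O2 was 0.22 in cells with Doxy (95% interval −0.05 to 0.49) and 0.03 in cells without (−0.24 to 0.29), the latter with a direction that turned in 5 of 15 alternatives, among them upper quartile scaling (−0.02).

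EGLN1 (ENSG00000135766, GRCh38 chr1:231363751-231425044, minus strand) encodes PHD2, the main oxygen sensor of the HIF pathway, and followed oxygen rather than FDX2. At 20% O2 it had 96.0, 96.2 and 94.4 CPM with Doxy and 91.4, 86.4 and 92.9 CPM without. In the 3% O2 libraries it had 148, 162 and 157 CPM with Doxy and 144, 149 and 157 CPM without. Every library at 3% O2 was above every library at 20% O2, and cells with and without Doxy overlapped at 3% O2 but not at 20% O2. Low oxygen raised EGLN1 1.63-fold in cells with Doxy (log2 fold change 0.71, SE 0.0544, Benjamini-Hochberg adjusted p = 3.60e-05, quasi-likelihood test of edgeR) and 1.66-fold in cells without (log2 fold change 0.74, SE 0.0545, adjusted p = 1.09e-05 by the same edgeR test). The call in cells with Doxy was lost in 1 of 15 alternatives, a replicate block with only the libraries compared (adjusted p = 0.207 by edgeR). Its direction held in all 15. FDX2 loss gave log2 fold changes of −0.08 at 20% O2 (95% interval −0.20 to 0.04) and −0.05 at 3% O2 (−0.17 to 0.07), which did not pass the threshold. The difference between the oxygen responses of cells without and with Doxy was 0.03 (95% interval −0.14 to 0.20, adjusted p = 0.846 by edgeR), with a sign that turned in 4 of 19 alternatives, among them upper quartile scaling (−0.03).

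EGLN2 (ENSG00000269858, GRCh38 chr19:40798996-40808433, plus strand), which encodes the prolyl hydroxylase PHD1, was the gene that fell after FDX2 loss at 20% O2. It had 7.93, 6.59 and 6.52 CPM with Doxy and 5.39, 5.22 and 5.82 CPM without at 20% O2. The values at 3% O2 were 5.89, 5.73 and 5.95 CPM with Doxy and 6.20, 6.03 and 5.74 CPM without. The 3 libraries at 20% O2 with Doxy were the highest of the 12, and the library that stood apart there (replicate 1) had the highest value. The log2 fold change after FDX2 loss at 20% O2 was −0.36 (SE 0.0948, Benjamini-Hochberg adjusted p = 0.0132, quasi-likelihood test of edgeR), and −0.29 without the 3 libraries that stood apart (adjusted p = 0.0248 by edgeR). The call was lost with a replicate block and only the 6 libraries compared (adjusted p = 0.0574 by edgeR). At 3% O2 it was 0.03 (95% interval −0.18 to 0.24), with a sign that turned with no filter on low counts and without those 3 libraries. Oxygen moved EGLN2 by −0.26 in cells with Doxy (−0.47 to −0.05, adjusted p = 0.247 by edgeR) and by 0.13 in cells without (−0.08 to 0.34). The difference of the responses, 0.39, missed the threshold (0.09 to 0.69, adjusted p = 0.109 by edgeR). Transcripts annotated on the same strand share 30.6% of the exonic bases of EGLN2, and its count is uncertain to that extent. Both overlapping genes, the read-through RAB4B-EGLN2 and AC008537.1, were listed with 0 counts in every library.

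HIF1AN (ENSG00000166135, GRCh38 chr10:100529072-100559998, plus strand) encodes FIH, the asparaginyl hydroxylase. Its levels at 20% O2 were 83.7, 91.6 and 91.4 CPM with Doxy and 110, 112 and 107 CPM without. At 3% O2 they were 106, 96.6 and 87.2 CPM with Doxy and 134, 89.9 and 89.2 CPM without. The groups at 20% O2 did not overlap, whereas at 3% O2 a single library without Doxy, replicate 1, lay far above the other two. In the fit to all 12 libraries, no comparison of HIF1AN passed the threshold, and the log2 fold change after FDX2 loss was 0.30 at 20% O2 (95% interval −0.00 to 0.60, adjusted p = 0.113 by edgeR) and 0.11 at 3% O2 (−0.19 to 0.41). When only the 6 libraries compared were fitted, the change at 20% O2 was called (0.30, adjusted p = 0.00474, and 0.31, adjusted p = 0.00866 with a replicate block, by edgeR). The single high library decided the result at 3% O2. Without it the change after FDX2 loss turned to −0.11 (adjusted p = 0.471 by edgeR), the change with oxygen in cells without Doxy went from −0.07 to −0.29 and was called (adjusted p = 0.0264 by edgeR), and the difference of the responses went from −0.19 to −0.41 and was called (adjusted p = 0.0484 by edgeR). Without all 3 libraries that stood apart, HIF1AN was higher after FDX2 loss at 20% O2 (0.22, adjusted p = 0.00148) and lower at 3% O2 (−0.22, adjusted p = 0.00648, both by edgeR). The part of those libraries in the result was not tested further.

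VHL (ENSG00000134086, GRCh38 chr3:10141008-10152220, plus strand), the substrate receptor of the ubiquitin ligase for HIF-α, varied least among the expressed genes, with condition means between 50.5 and 56.9 CPM. At 20% O2 it had 53.8, 55.6 and 52.8 CPM with Doxy and 56.8, 56.5 and 57.2 CPM without. At 3% O2 the values were 53.2, 51.4 and 54.5 CPM with Doxy and 47.1, 49.5 and 54.8 CPM without. The groups at 20% O2 did not overlap but lay within 5 CPM of each other, and those at 3% O2 overlapped. Log2 fold changes after FDX2 loss were 0.07 at 20% O2 (95% interval −0.06 to 0.20) and −0.07 at 3% O2 (−0.20 to 0.06). With oxygen the change was −0.03 in cells with Doxy (−0.16 to 0.10) and −0.17 in cells without (−0.30 to −0.04, adjusted p = 0.0528 by edgeR), and the latter passed in 6 of 15 alternatives, among them leaving out replicate 3 at 3% O2 and leaving out the 3 libraries that stood apart (−0.14, adjusted p = 0.0486 by edgeR). In bulk RNA, fewer expressing cells and less RNA per cell cannot be told apart for any of these genes.

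Ratios within a library set the sensors against their substrates, each gene scaled by exon length. The EGLN1 level, as a percentage of the HIF1A level, was 20.7, 19.1 and 18.3 at 20% O2 with Doxy and 13.5, 13.0 and 13.2 without. At 3% O2 it was 33.0, 36.7 and 40.7 with Doxy and 27.9, 29.3 and 29.7 without. The 4 conditions did not overlap, and the ratio was lowest in the cells without Doxy at 20% O2 and highest in the cells with Doxy at 3% O2. The EPAS1 level was 1.13 ± 0.123% of the HIF1A level at 20% O2 with Doxy, 2.85 ± 0.177% without, 1.61 ± 0.333% at 3% O2 with Doxy and 2.13 ± 0.193% without (SD, n = 3). Its range at 3% O2 without Doxy (1.92 to 2.31%) touched that with Doxy (1.26 to 1.92%). EGLN2 stood at 8.11 ± 0.877% of EGLN1 at 20% O2 with Doxy and 6.70 ± 0.204% without, and at 4.16 ± 0.259% and 4.42 ± 0.369% at 3% O2 (SD, n = 3). VHL stood at 18.9 ± 1.19% of HIF1A at 20% O2 with Doxy and 14.4 ± 0.358% without, and at 21.6 ± 2.34% and 16.8 ± 1.04% at 3% O2. HIF1A exceeded ARNT 11.3-fold and 13.8-fold at 20% O2, and 10.2-fold and 12.8-fold at 3% O2, with and without Doxy. These ratios are descriptions, and they compare mRNA and not protein.

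**Figure D4:**
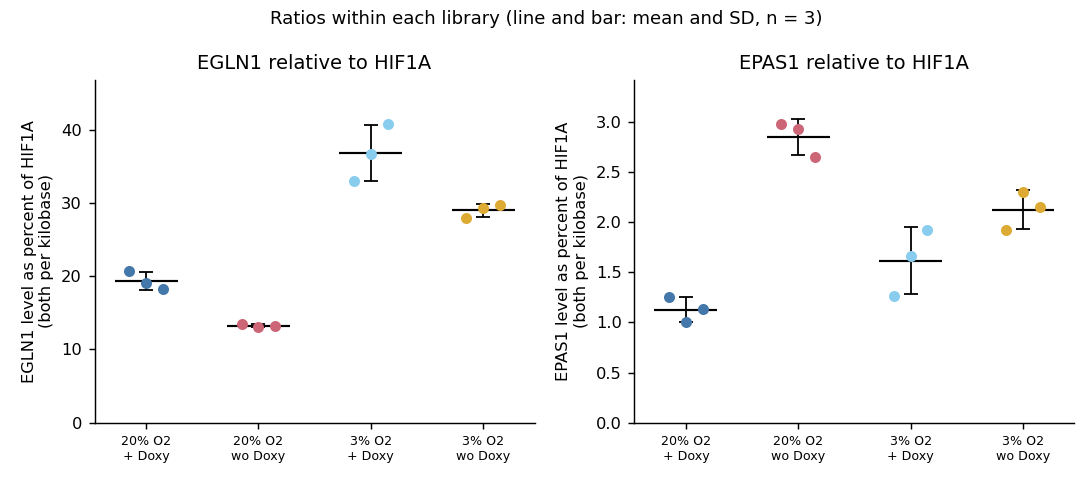
EGLN1 (left) and EPAS1 (right) as a percentage of HIF1A, each gene in CPM per kilobase, for each library (dots) with the mean and SD of each condition (n = 3). EGLN1 relative to HIF1A is lowest at 20% O2 without Doxy (13.0 to 13.5%) and highest at 3% O2 with Doxy (33.0 to 40.7%).

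Other genes of the pathway were taken from a list of 24 partners, among them subunits of the VHL ligase, coactivators, chaperones of HIF-α and modifiers of its stability. Of these, 23 were tested (ARNT2 had at most 11 counts). FDX2 loss at 20% O2 raised 3 and lowered 6 of them, with a median log2 fold change of −0.08. The 3 largest decreases were in chaperone genes. HSP90AB1 fell to 0.531-fold (log2 fold change −0.91, SE 0.0548), HSP90AA1 to 0.597-fold (−0.74, SE 0.0517) and PTGES3, which encodes the HSP90 cochaperone p23, to 0.688-fold (−0.54, SE 0.061), with Benjamini-Hochberg adjusted p = 8.30e-07, 1.95e-06 and 6.12e-05 (quasi-likelihood test of edgeR). The higher genes were BMAL1, a circadian relative of ARNT (0.42), OS9 (0.27) and AJUBA, a scaffold of the LIMD1 family (0.18), and the calls of OS9 and AJUBA were lost when replicate 2 or 3 with Doxy or any replicate without Doxy was left out. At 3% O2 the same 3 chaperone genes were the only partners called, all lower (PTGES3 −0.28, HSP90AB1 −0.26, HSP90AA1 −0.26). These calls were lost when replicate 2 without Doxy was left out, and for HSP90AA1 and PTGES3 also without replicate 2 with Doxy, for PTGES3 without replicate 1 with Doxy and for HSP90AB1 without replicate 3 without Doxy. Without the 3 libraries that stood apart, 4 partners were higher and 8 lower in that comparison, where 15.9% of all genes were then higher and 16.6% lower. With oxygen in cells with Doxy, 0 partners were called by edgeR (6 at an unadjusted p under 0.05) and 1 by DESeq2. In cells without Doxy, 5 were higher at 3% O2 and 0 lower, led by HSP90AB1 (0.62), HSP90AA1 (0.51) and LIMD1 (0.37), a scaffold that joins EGLN and VHL. The difference of the responses was called for HSP90AB1 (0.65) and HSP90AA1 (0.49) in the positive and for BMAL1 (−0.41) in the negative direction. BMAL1 lost this call when any library other than replicate 1 at 3% O2 without Doxy was left out. The counts of the list are a description, to be read beside the shares of all genes called in each comparison given above.

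Hypoxia-inducible genes that are direct HIF targets by general knowledge were taken as a list of 20, of which 19 were tested (RORA had 3 to 14 counts). The list was chosen with earlier results of these data known, so its counts are a description only. In cells with Doxy, low oxygen raised 17 of the 19 and lowered 0 (1.63% and 0.385% of all genes), with a median log2 fold change of 0.96 (0.92 without CA9). In cells without Doxy it raised 16 and lowered 1, MXI1 (−0.30), with a median of 0.70, where 13.9% of all genes were higher and 11.9% lower. PFKFB4, a kinase that controls glycolysis, rose 7.30-fold with Doxy and 4.31-fold without. DDIT4, an inhibitor of mTORC1 signalling, rose 6.56-fold with Doxy, and ANKRD37 3.19-fold without. CA9, which encodes a cell-surface carbonic anhydrase, had 2 to 3 counts per library at 20% O2 with Doxy and 1248 to 2699 at 3% O2 with Doxy. These increases at 3% O2 stand beside the increase of EGLN1 (0.71 and 0.74) and beside CITED2, which was not called. FDX2 loss at 20% O2 raised 7 targets and lowered 2 (17.6% and 17.7% of all genes), with a median of 0.16. The higher ones were led by DDIT4 (log2 fold change 2.01, SE 0.144), the MYC antagonist MXI1 (0.98, SE 0.0649) and the secreted glycoprotein gene STC2 (0.86, SE 0.0711), and the lower ones were ANKRD37 (−0.58), whose call was lost without replicate 1 with Doxy or replicate 2 or 3 without, and the oxidoreductase gene ERO1A (−0.31). FDX2 loss at 3% O2 raised 0 and lowered 3 (4.2% and 3.11% of all genes), namely the collagen hydroxylase gene P4HA1 (−0.50), the lipoprotein receptor gene VLDLR (−0.47) and the histone demethylase gene KDM3A (−0.34, lost without replicate 2 without Doxy). Without the 3 libraries that stood apart, 4 were higher and 5 lower there (15.9% and 16.6% of all genes). For 7 of the 19 the response to FDX2 loss was lower at 3% than at 20% O2, among them DDIT4 (−1.74), VLDLR (−0.998) and MXI1 (−0.77), and for 0 it was higher (4.08% and 3.21% of all genes). The antisense gene DDIT4-AS1 overlaps 41.2% of the exonic bases of DDIT4, and another gene overlaps 35.2% of those of ANKRD37 and 38.5% of those of CA9, so these counts are uncertain if strand was not used in counting.

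The genes whose profile over the 12 libraries was most like that of the 3 most variable genes were sought among the 10764 genes that averaged 5 CPM or more, by the root-mean-square (RMS) difference of centred log2 CPM. Nearest to EPAS1, whose condition means span 1.72 on the log2 scale, were DUSP10 (RMS difference 0.123), which encodes a phosphatase of stress kinases, PGPEP1 (0.135) and ABTB2 (0.152). DUSP10 had condition means of 8.02, 27.7, 11.1 and 16.3 CPM at 20% O2 with and without Doxy and 3% O2 with and without Doxy. Nearest to EGLN1 (span 0.78) were TGFBI (0.101), P4HA2 (0.107), a collagen prolyl hydroxylase gene that is itself in the list of targets, and ARHGAP30 (0.107). Nearest to HIF1A (span 0.68) were COG5 (0.0478), TENT2 (0.0543) and SLC25A16 (0.0565). The profiles share libraries and scaling, and likeness of profile is a description only.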

How the data were processed

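Poly(A) RNA from FDX2-iKO ES2 cells was sequenced by DNBSEQ-T7 in 12 libraries. The authors aligned the reads to GRCh38 with STAR, counted them with featureCounts and deposited raw counts per gene and library. Versions, annotation and strand setting are not given in the sources used here. All 58735 identifiers occur in GENCODE 29, which gave positions, exon lengths and overlaps, and 58207 have a symbol.

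The model was fitted by edgeR 4.0.16 (with limma 3.58.1, under R 4.3.3): filterByExpr (minimum count 10, total 15) kept 16891 of 32966 genes with a count, TMM scaled the libraries, and a quasi-likelihood fit with 4 condition means left 8 residual degrees of freedom (biological coefficient of variation 16.3%). Steps were tested on simulated data. DESeq2 1.42.0 (Wald test, size factors), upper quartile scaling, other filters, fits to the compared libraries, a replicate block and leaving out each library were alternatives. Leaving out the 3 libraries that stand apart was chosen after seeing the data. Members and gene lists were chosen with earlier results of these data known. A further cell type marker of the list is not reported here. Named list genes are, by list and comparison, up to 3 called genes with the largest increase and up to 3 with the largest decrease. For likeness, 0.5 CPM was added before the logarithm. The p-values set differences of condition means against the spread between these libraries only.

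Replicate numbers were checked by correlating deviations from condition means. In cells without Doxy, same-numbered libraries at 20% and 3% O2 correlated at 0.226 to 0.510 (other pairs −0.499 to 0.222). This was the only pair of conditions in which all 3 were above 0.1, and all pairs of conditions were searched. A pairing by number is therefore not settled, and the main fit used none. Elsewhere at least 1 of the 3 was at or under 0.1.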

Additional observations from a re-analysis of the deposited data

Results flagged for a closer look

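The response to FDX2 loss differed between 3% and 20% O2 for EPAS1, 1 of the 8 tested members. It also differed for 3 of the 23 tested partners and 7 of the 19 tested targets. The difference itself was tested (quasi-likelihood test of edgeR, p-values adjusted after Benjamini and Hochberg). Among all tested genes, 3.21% were called in the positive and 4.08% in the negative direction. Of the 10 list genes, the 6 named by the rule follow. For EPAS1 the log2 difference was −1.10 (adjusted p = 0.00281, edgeR), and at both oxygen levels all 3 libraries without Doxy were above all 3 with Doxy. DDIT4 (−1.74, adjusted p = 0.0007, edgeR), VLDLR (−0.998, adjusted p = 0.000449, edgeR) and MXI1 (−0.77, adjusted p = 0.00105, edgeR) also had a lower response at 3% O2. For VLDLR the direction turned. After FDX2 loss it was higher at 20% O2 (0.53, adjusted p = 0.000202, edgeR) and lower at 3% O2 (−0.47, adjusted p = 0.00294, edgeR). HSP90AB1 (0.65, adjusted p = 0.00101, edgeR) and HSP90AA1 (0.49, adjusted p = 0.00343, edgeR) had a difference in the positive direction, since both fell less at 3% O2. BMAL1 (−0.41, adjusted p = 0.0489, edgeR) passed with all libraries but in 6 of 19 alternatives, and lost the call without any library other than replicate 1 at 3% O2 without Doxy. What lies behind these differences was not tested.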

How the results depend on the processing

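Of the 13 calls for single members, 8 held in all alternatives and 0 changed direction, and of the 27 results that were not called, 15 stayed so in all. Among 33 results for named list genes, 23 held in all and 0 changed direction. The cause was not tested for any change below.

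Counts that moved were mostly those of FDX2 loss at 3% O2. The number of members called there (2) was 1 with no filter, 0 with only the compared libraries, 1 to 3 when a library was left out and 4 without the 3 libraries that stand apart. The number of partners (3) was 1, 0, 0 to 4 and 12 under the same settings. The number of targets (3) was 5 with DESeq2's Wald test, 2 to 5 with a library left out and 9 without those 3 libraries. With oxygen in cells with Doxy, members called (1) were 2 with DESeq2's Wald test and 2 without the 3 libraries, and partners (0) were 1, 0 to 1 with a library left out, and 2. Without Doxy, partners (5) were 9 with only the compared libraries and 13 without the 3. For the difference of the responses, members (1) were 2 with upper quartile scaling, 2 with DESeq2's Wald test, 1 to 2 with a library left out and 3 without the 3 libraries, and partners (3) were 7. For FDX2 loss at 20% O2, partners (9) were 12 without the 3 libraries (3 higher, 9 lower), and targets (9) were 12 (8 higher, 4 lower). Without the 3 libraries the shares of all genes called rose too. FDX2 loss at 20% O2 then had 21.1% higher and 27.1% lower. FDX2 loss at 3% O2 then had 15.9% higher and 16.6% lower, and oxygen with Doxy 3.12% and 2.63%. Oxygen without Doxy had 24.6% and 22.1%, and the difference of the responses 16.6% and 10.7%.

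With a replicate block the members called after FDX2 loss at 3% O2 were 1, or 0 with only the compared libraries, where partners and targets were also 0. With the block and only the 6 libraries with Doxy, members called for oxygen were 0 and targets 4. For 20% against 3% O2 without Doxy, where the block changed no call of a member, a pairing by number is not settled. In the other comparisons the labels give only a shared number, and a pairing was neither shown nor excluded.

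Some signs turned. EGLN2 after FDX2 loss at 3% O2 was −0.00192 with no filter and −0.0219 without the 3 libraries. HIF1AN at 3% O2 was −0.219 without the 3 libraries, where it was called (adjusted p = 0.00648, edgeR), and −0.11 to 0.21 with a library left out, and its oxygen change without Doxy −0.29 to 0.033. CITED2 with oxygen in cells without Doxy was −0.0228 with upper quartile scaling, −0.000611 with at least 10 counts in every library and −0.0507 to 0.0896 with a library left out. The EGLN1 difference was −0.035 with upper quartile scaling and −0.0054 to 0.0616 with a library left out. Low counts limit EPAS1 and EGLN2 most.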
